A study of Mus musculus with 55 samples.

Results

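The ventral dentate gyrus of 7 mice that were resilient (RES) to chronic social defeat stress (CSDS) was compared with that of 10 unstressed control mice, all raised in standard housing (SH). The mice were taken by the housing and social defeat phenotype in the sample labels, with every labelled mouse kept, and make up 17 of the 54 mice of the series. RNA of this hippocampal region was sequenced in 1 library per mouse. The other mice were 10 susceptible (SUS) mice in SH and 9 mice each of control, RES and SUS mice raised in an enriched environment (EE).

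All mice were wild-type C57/BL6J males that entered SH, in small groups in plain cages, or EE, in large groups in cages with tunnels, objects and running wheels, when they were weaned. The stressed mice were then attacked daily by an aggressive CD-1 mouse and lived beside it across a divider between attacks, and the tissue was taken in young adulthood. RES mice were those with a social interaction ratio above 1 after CSDS, so RES and SUS mice had the same stress and were divided by later behaviour, while the control mice had neither. RES is therefore a class cut from 1 behavioural score, and the comparison of RES with control mice holds the effect of stress and that of the later division together. The handling of control mice during the CSDS days was not given in the sources used here.

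The dentate gyrus receives the main cortical input to the hippocampus and is a site of adult neurogenesis. Its ventral part is tied to anxiety and stress responses, and its granule cells carry many corticosteroid receptors, through which stress hormones reach gene expression. A tissue punch also holds glia, blood vessels, the blood inside them and some cells of neighbouring regions.

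Each SH RES mouse had between 18273321 and 23306953 read pairs counted to genes, with a median of 21590797, and each SH control mouse between 16760009 and 24067110, with a median of 21401924.5. Depth therefore overlapped between the groups. Levels are given in CPM, the counts of a gene scaled to a common library size, and differences as log2 fold changes of RES minus control. Summed markers of mature granule cells were 1128 to 1256 CPM in RES and 834 to 1362 CPM in control mice, and all 10 of these genes were detected. SH control mouse 3 stood apart, with 1018 CPM of summed choroid plexus markers where the other control mice had at most 57.1 CPM. Control mouse 10 had the highest summed myelin markers at 2271 CPM and the lowest hilar mossy cell markers at 59.9 CPM. RES mouse 5 had the highest summed striatum markers at 52.4 CPM, of which the marker Drd1 made up 21.0 CPM.

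The first question was which genes differed between RES and control mice in SH. Of 18283 genes tested, 0 passed an adjusted p of 0.05 (0% of the genes) in the quasi-likelihood test of edgeR, and limma and DESeq2 also called 0. The smallest adjusted p was 0.633 in edgeR, 0.999 in limma and 0.161 in DESeq2. At an unadjusted p below 0.05, edgeR gave 641 genes (3.51%), 316 higher (1.73%) and 325 lower (1.78%) in RES mice, where the threshold alone gives 914 genes. Limma gave 636 and DESeq2 607 genes. The 95% interval of the difference lay within a fold change of 1.3 in either direction for 12932 genes, or 70.7% of those tested. No gene is therefore said to have risen or fallen below, and the genes are described by their values.

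**Figure D1:**
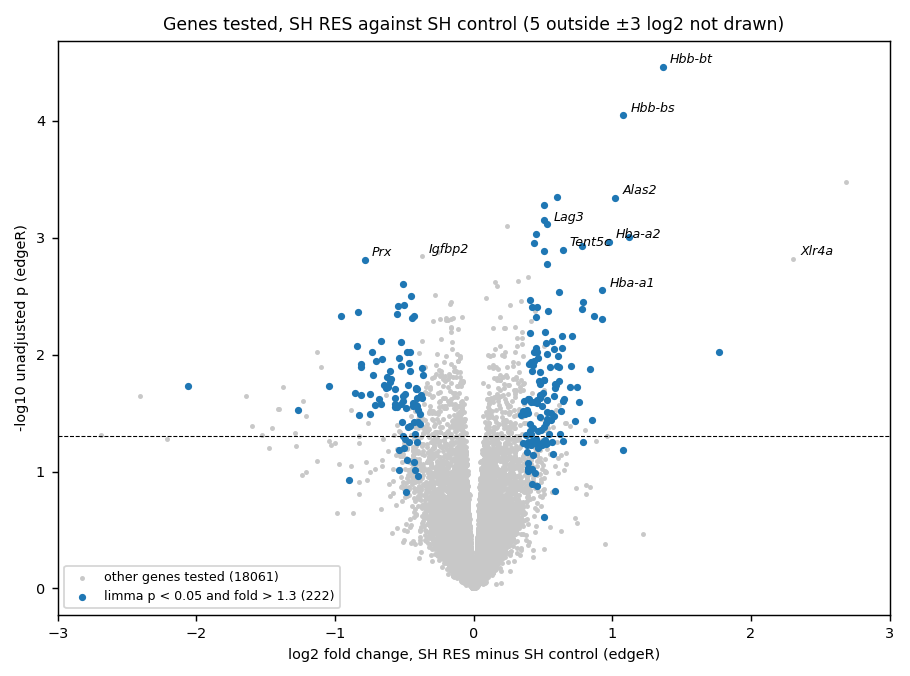
Each point is 1 of the 18283 genes tested, placed by its log2 fold change (SH RES minus SH control, edgeR, x axis) and by −log10 of its unadjusted p (y axis), with the dashed line at p = 0.05. Blue points are the 222 genes with a limma p below 0.05 and a fold change above 1.3, 5 genes beyond 3 log2 units are not drawn, and Hbb-bt and Hbb-bs lie at the top right.

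The 2 genes with the smallest p, Hbb-bt and Hbb-bs, encode beta globin, the chain that alpha globin joins in the haemoglobin of red blood cells. The red cell list holds 11 genes, these 2 among them, and was chosen with earlier results of these data known, so its counts are descriptive. Of its genes 10 were tested, and 7 of these were higher in RES mice at an unadjusted p below 0.05, against 1.73% of all genes. The same 7 genes met the criterion of the study for differentially expressed genes (DEGs), a limma p below 0.05 and a fold change above 1.3, against 0.733% of all genes in that direction. The median log2 fold change of the list was 0.95, where the median of all genes was −0.004. They are the beta globin genes Hbb-bt and Hbb-bs, the alpha globin genes Hba-a1 and Hba-a2, Alas2, the first enzyme of haem synthesis in the erythroid line, Slc4a1, the anion exchanger of the red cell membrane, and Tent5c, a poly(A) polymerase active in erythroid cells. In bulk tissue more cells of a type and more RNA per cell cannot be told apart.

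The promoters of the 4 globin genes and Alas2 are shown to let the shared letters be seen. The windows are 300 bases around the annotated start, from RefSeq (GRCm38.p6), written 5′ to 3′ on the strand of the gene. Capitals mark 3 short motifs on either strand, GATAA, bound by GATA factors, CACCC, bound by Krüppel-like factors, and CCAAT.
Hbb-bt, chr7:103813874-103814173, minus strand: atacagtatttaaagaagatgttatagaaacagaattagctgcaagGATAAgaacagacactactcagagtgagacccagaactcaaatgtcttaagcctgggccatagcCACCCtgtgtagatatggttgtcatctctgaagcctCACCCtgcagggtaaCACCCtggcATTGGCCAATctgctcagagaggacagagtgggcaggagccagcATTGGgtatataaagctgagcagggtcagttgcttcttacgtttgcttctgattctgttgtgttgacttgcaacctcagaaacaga
Hbb-bs, chr7:103827879-103828178, minus strand: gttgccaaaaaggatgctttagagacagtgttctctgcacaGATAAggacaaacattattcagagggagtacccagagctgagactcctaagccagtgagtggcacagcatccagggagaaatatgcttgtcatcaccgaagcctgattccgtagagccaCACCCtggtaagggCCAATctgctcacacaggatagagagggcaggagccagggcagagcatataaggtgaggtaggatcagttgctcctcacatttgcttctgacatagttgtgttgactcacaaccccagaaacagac
Hba-a1, chr11:32283422-32283721, plus strand: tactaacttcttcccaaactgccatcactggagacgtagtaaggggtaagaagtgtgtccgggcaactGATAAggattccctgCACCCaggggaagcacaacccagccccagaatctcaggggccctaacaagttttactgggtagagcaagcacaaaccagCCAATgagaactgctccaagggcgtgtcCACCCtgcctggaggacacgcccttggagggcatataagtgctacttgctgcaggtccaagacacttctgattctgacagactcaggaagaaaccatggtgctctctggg
Alas2, chrX:150547167-150547466, plus strand: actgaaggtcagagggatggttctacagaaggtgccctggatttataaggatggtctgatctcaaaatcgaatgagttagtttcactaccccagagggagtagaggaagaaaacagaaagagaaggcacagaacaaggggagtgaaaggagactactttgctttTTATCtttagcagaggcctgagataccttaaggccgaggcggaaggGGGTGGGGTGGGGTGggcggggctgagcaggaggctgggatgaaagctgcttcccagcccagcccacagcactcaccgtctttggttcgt

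Each of these windows held 1 match to GATAA and at least 1 to CACCC, and the 3 globin windows held CCAAT while that of Alas2 held none. GATAA was in 25.4%, CACCC in 57.5% and CCAAT in 37.4% of all 32851 promoter windows. The window of Hba-a2 (chr11:32296242-32296541, plus strand) repeats that of Hba-a1 shifted by 3 bases, with 297 of 297 bases the same. A match describes the letters only and does not show binding. The transcripts of Hba-a1 and Hba-a2 were 99.8% identical over 538 aligned bases and those of Hbb-bs and Hbb-bt 92.8% over 624. Read pairs that mapped to more than 1 place were not counted to any gene. Those shared by the members of a pair may therefore be missing, and the level of each member and of their sum is uncertain.

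Hbb-bt lay between 3.83 and 9.0 CPM in the 10 control mice, with a median of 6.11, and between 9.80 and 24.3 CPM in the 7 RES mice, with a median of 14.6. Every RES mouse was above every control mouse, which held for 3 of the 18283 genes (0.0164%). Its fold change was 2.57 (95% interval 1.69 to 3.91), a log2 fold change of 1.36 (SE 0.30, edgeR p = 3.46e-05, adjusted p = 0.633).

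Hbb-bs ranged from 30.6 to 61.5 CPM in control mice (median 49.4) and from 58.5 to 157 CPM in RES mice (median 101). Here 6 of 7 RES mice were above all controls and RES mouse 5, the lowest, overlapped them. The log2 fold change was 1.08 (SE 0.26, edgeR p = 9.02e-05, adjusted p = 0.824).

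Hba-a1 was at 9.96 to 23.4 CPM in controls (median 14.7) and 16.1 to 40.8 CPM in RES mice (median 29.2), with a log2 fold change of 0.93 (SE 0.30, unadjusted p = 0.00283). Hba-a2 was at 5.14 to 10.1 CPM in controls (median 7.88) and 9.04 to 22.4 CPM in RES mice (median 15.4), a log2 fold change of 0.97 (SE 0.28, unadjusted p = 0.00109). Both alpha globin genes had RES mice above all controls, 5 of 7 for Hba-a1 and 6 of 7 for Hba-a2, and the rest overlapped them.

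Summed over the 4 genes, globin RNA was 50.3 to 103 CPM in control mice (median 79.3) and 93.5 to 244 CPM in RES mice (median 161). RES mouse 5 was the 1 that overlapped the controls, and RES mouse 3 was the highest. SH SUS mice, which share these controls, had 66.1 to 403 CPM (median 208).

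Alas2 was at 1.95 to 4.75 CPM in controls (median 3.44) and 4.43 to 9.30 CPM in RES mice (median 6.60), with 6 of 7 RES mice above all controls. Its log2 fold change was 1.02 (SE 0.27, unadjusted p = 0.000457), and 0.53 when reads of both strands were counted. Tent5c was at 2.89 to 4.65 CPM in controls (median 3.81) and 4.10 to 7.95 CPM in RES mice (median 5.52), a log2 fold change of 0.64 (SE 0.19, unadjusted p = 0.00127). Slc4a1, at most 0.40 CPM in controls and at 0.18 to 0.82 CPM in RES mice, overlapped in 3 of 7 RES mice and had a log2 fold change of 1.77 (SE 0.66, unadjusted p = 0.00959).

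Not all listed genes followed. Bpgm and Fech, enzymes of red cell glycolysis and of haem synthesis that many tissues also use, had log2 fold changes of −0.04 and −0.05. Epb42, a protein of the red cell membrane, was too low to test.

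When the model held the SH RES and SH control mice alone, 4 of 17290 genes passed an adjusted p of 0.05 in edgeR (0.0231%), and these were Hbb-bt (adjusted p = 0.00121), Hbb-bs (0.0188), Hba-a2 (0.0306) and Alas2 (0.0340). Limma gave adjusted p of 0.00325, 0.0421, 0.0677 and 0.0573 for the same genes. The log2 fold change of Hbb-bt was 1.37, close to the 1.36 of the model over all mice, with an SE of 0.17 in place of 0.30. The model over the 54 mice shares 1 spread among all groups, and the SD of log2 CPM of Hbb-bt was 0.38 in SH control and 0.45 in SH RES mice against 0.89 in SH SUS and 0.91 in EE SUS mice.

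The red cell count did not rest on a single mouse. In each of the 17 fits without 1 mouse, 7 genes were below an unadjusted p of 0.05 and 7 met the criterion, with a list median between 0.84 and 1.05. Without SH control mice 3 and 5 and SH RES mouse 3 (the last had the most reads on a ribosomal RNA fragment), left out together after their values were seen, 6 genes were below p 0.05, 7 met the criterion and the median was 0.82. Of 12 endothelial genes, whose cells line the vessels, 0 were higher and 1 lower at p below 0.05, against 1.73% and 1.78% of all genes. The lower gene was the tight junction gene Cldn5, and the list median was 0.02.

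**Figure D2:**
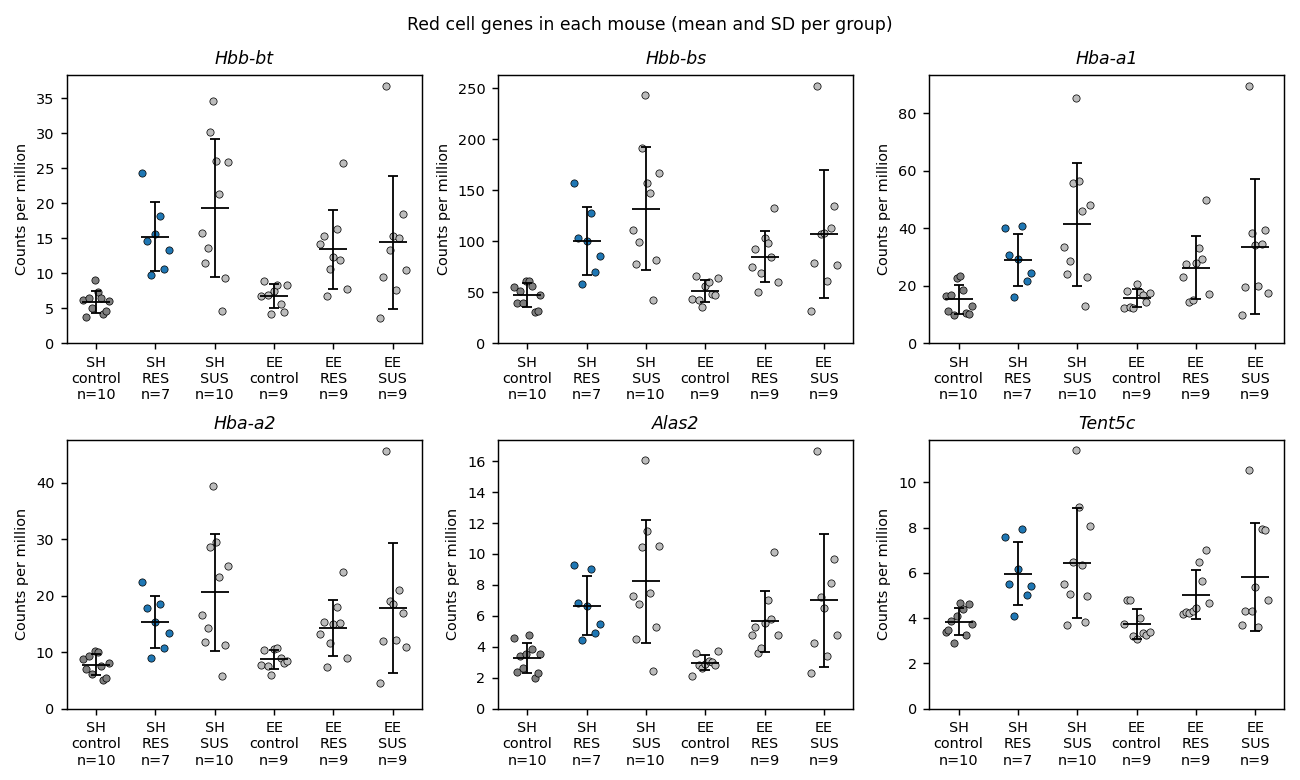
Levels of 6 red cell genes in every mouse of the 6 groups, in CPM on linear axes that start at 0, with the mean and SD of each group as a horizontal mark and bars. SH RES mice (blue) sit above most SH control mice (dark grey), and all 7 do so for Hbb-bt, while the 2 SUS groups have the widest spread.

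Outside the red cell list, the named genes with the smallest p among those higher in RES mice were Lag3, Cdh13, Pcdhb8, Fmo2, Tmem106a, Xlr4a and Pparg. Lag3, an inhibitory receptor of T cells that microglia also express, was at 0.74 to 1.52 CPM in controls (median 1.13) and 1.34 to 1.90 CPM in RES mice (median 1.64). The groups overlapped in 1 RES mouse and the log2 fold change was 0.53 (SE 0.15, unadjusted p = 0.000768).

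Cdh13, a cadherin without a transmembrane part that acts at synapses, was at 47.3 to 70.3 CPM in controls (median 58.6) and 60.4 to 88.5 CPM in RES mice (median 68.5). The ranges overlapped widely, with a log2 fold change of 0.24 (SE 0.07, unadjusted p = 0.000794) that was 0.18 without RES mouse 5, the highest. Pcdhb8, a clustered protocadherin of neuronal surfaces, was at 2.30 to 4.13 CPM in controls (median 3.14) and 3.52 to 5.09 CPM in RES mice (median 4.13), with a log2 fold change of 0.44 (SE 0.13, unadjusted p = 0.00111).

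Tmem106a, a membrane protein of macrophages, lay between 0.62 and 0.90 CPM in controls (median 0.79) and between 0.91 and 1.42 CPM in RES mice (median 1.08), with no overlap. Its log2 fold change was 0.50 (SE 0.13, unadjusted p = 0.00129). The third gene whose groups did not overlap was Tmem69, named after its values were seen, with a mean of 5.89 CPM in controls and 6.89 CPM in RES mice and a log2 fold change of 0.22 (SE 0.10, unadjusted p = 0.0241). No gene had every RES mouse below every control mouse.

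Fmo2, a flavin monooxygenase of drug metabolism, was at 0.55 to 1.35 CPM in controls (median 0.75) and 0.82 to 2.63 CPM in RES mice (median 1.16). RES mouse 7 was the highest, and the log2 fold change of 0.78 (SE 0.23, unadjusted p = 0.00119) was 0.54 without it. Pparg, a nuclear receptor of lipid metabolism, was at 2.06 to 3.73 CPM in controls and 2.58 to 5.37 CPM in RES mice, with overlap. Its log2 fold change of 0.39 (SE 0.12, unadjusted p = 0.00218) was 0.25 without RES mouse 5. Xlr4a, an X-linked gene with near-identical copies, rested on RES mice 5 and 7, at 1.7 and 2.67 CPM, while the other 5 RES mice were at 0.33 CPM or less, within the range of the controls.

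The ranges of the groups overlapped for each of the 12 named genes with the smallest p among those lower in RES mice. Isyna1, which makes the first intermediate of inositol synthesis from glucose phosphate, was at 14.5 to 20.3 CPM in controls (median 16.6) and 13.2 to 14.8 CPM in RES mice (median 14.0). All but 1 control mouse lay above all RES mice, with a log2 fold change of −0.26 (SE 0.08, unadjusted p = 0.00132). Igfbp2, a binding protein of insulin-like growth factors, was at 15.7 to 29.1 CPM in controls (median 18.9) and 12.3 to 19.1 CPM in RES mice (median 13.9), a log2 fold change of −0.38 (SE 0.11, unadjusted p = 0.00144). Its highest value was that of SH control mouse 3, without which the log2 fold change was −0.30.

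Prx, a scaffold protein of Schwann cell myelin, was at 0.37 to 0.90 CPM in controls (median 0.47) and 0.19 to 0.43 CPM in RES mice (median 0.33), with a log2 fold change of −0.79 (SE 0.24, unadjusted p = 0.00155) that was −0.36 when both strands were counted. Micall2, which acts in the recycling of junction proteins, was at 1.11 to 1.57 CPM in controls (median 1.40) and 0.55 to 1.5 CPM in RES mice (median 0.82), with a log2 fold change of −0.51 (SE 0.16, unadjusted p = 0.00247). Both genes overlapped between the groups.

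Of the others, Gpr37, a receptor of oligodendrocytes, had a log2 fold change of −0.16 (48.4 to 57.6 CPM in controls, 45.9 to 51.0 CPM in RES mice). Kcng4, a modifier subunit of voltage-gated potassium channels, had one of −0.45 (3.55 to 9.0 CPM against 3.25 to 4.99 CPM), and Kank1, which organises the cell cortex, one of −0.17 (27.8 to 34.4 CPM against 23.9 to 31.6 CPM). Tnfrsf12a, the receptor of the cytokine TWEAK, had one of −0.55, Slc5a11, a transporter of inositol, one of −0.84, Ppp1r14a, an inhibitor of myosin phosphatase, one of −0.43 and Nek8, a kinase of the primary cilium, one of −0.28. These 7 genes had unadjusted p between 0.00308 and 0.00464. Ttr, the thyroxine carrier of the choroid plexus, was also among the 12, and its values are given with the choroid plexus list.

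**Figure D3:**
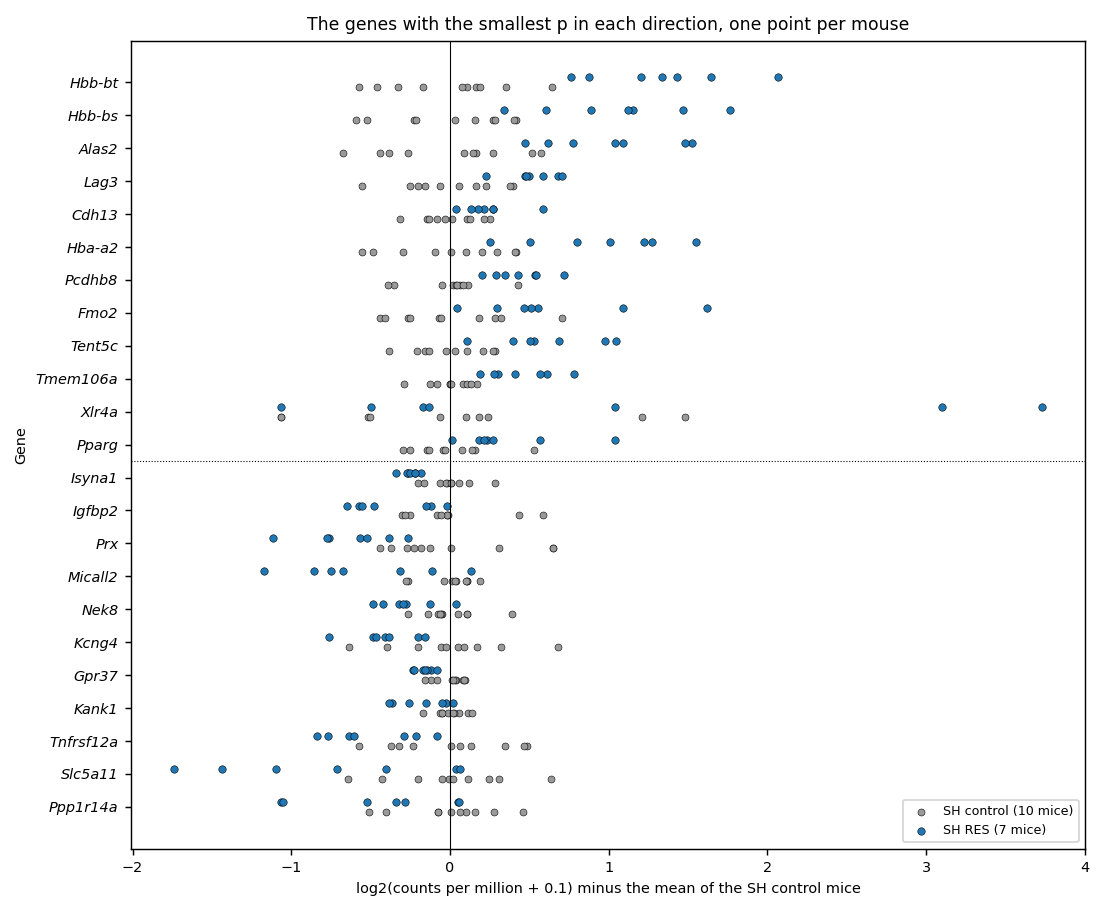
For 23 of the 24 genes with the smallest p in each direction (Ttr is not drawn), each point is 1 mouse, placed by log2(CPM + 0.1) minus the mean of the SH control mice (x axis), with genes as rows. The 12 genes above the dotted line were higher in the RES mice (blue) on average and the 11 below it lower, and the 2 RES mice far to the right for Xlr4a are mice 5 and 7.

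Of 22 corticosteroid receptors and glucocorticoid targets, 0 were higher and 1 lower at p below 0.05, against 1.73% and 1.78% of all genes. The median was −0.01, and the interval of 17 lay within a fold change of 1.3. The lower gene was Nr3c2, the mineralocorticoid receptor, at 343 to 419 CPM in controls (median 374) and 309 to 380 CPM in RES mice (median 360), a log2 fold change of −0.09 (SE 0.04, unadjusted p = 0.0397). It was above the threshold in 8 of the 17 fits without 1 mouse, namely without RES mouse 1, 4, 5 or 7 or control mouse 1, 4, 7 or 8. Nr3c1, the glucocorticoid receptor, was at 123 to 158 CPM in controls (median 144) and 136 to 161 CPM in RES mice (median 143), with a log2 fold change of 0.02 (SE 0.04). Fkbp5, a chaperone induced by glucocorticoids, had a log2 fold change of −0.01 (SE 0.08), with 35.3 to 50.6 CPM in controls and 29.6 to 52.1 CPM in RES mice. The list member with the largest log2 fold change was Lcn2, a secreted protein that binds the iron carriers of bacteria, named after its values were seen, at 0 to 1.84 CPM in controls (median 0.0452) and 0.181 to 0.991 CPM in RES mice (median 0.424). Its log2 fold change was 1.22 (SE 1.27, unadjusted p = 0.341).

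Activity-dependent genes overlapped between the groups as well. Of 24 immediate early genes 0 passed p below 0.05, where 3.51% of all genes did. The median was −0.03, and the interval of 20 of them lay within a fold change of 1.3. Fos was at 1.94 to 6.98 CPM in controls and 2.47 to 6.82 CPM in RES mice, with a log2 fold change of −0.04 (SE 0.21). Arc, which acts in synaptic receptor uptake, was at 32.9 to 78.9 CPM in controls and 32.4 to 51.5 CPM in RES mice, with a log2 fold change of −0.09 (SE 0.12). Bdnf, the main neurotrophin of granule cells, was at 53.5 to 83.5 CPM in controls (median 65.0) and 58.7 to 97.1 CPM in RES mice (median 67.8), a log2 fold change of 0.09 (SE 0.09).

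Of 18 neurotrophins and growth factors tested, 3 were lower at p below 0.05, against 1.78% of all genes, and 0 higher, with a median of −0.02. Besides Igfbp2 these included Fgf1, a fibroblast growth factor, at 41.3 to 61.0 CPM in controls and 37.3 to 46.1 CPM in RES mice (log2 fold change −0.20, SE 0.07). The same count of 3 lower genes was found in every fit without 1 mouse.

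The circadian clock list had 6 members below the threshold, as many as the choroid plexus list and fewer than the red cell list with 7. Of its 17 genes 15 had a higher mean in RES mice, where 8657 of the 18283 genes tested did. Of the 17, 5 were higher and 1 lower at p below 0.05, against 1.73% and 1.78% of all genes, and the median was 0.06. None met the criterion of the study, since all differences were under 1.3-fold. Nr1d2, a repressor of the clock, was at 95.2 to 124 CPM in controls (median 107) and 113 to 131 CPM in RES mice (median 121), a log2 fold change of 0.16 (SE 0.05, unadjusted p = 0.0024). Per3, a period gene, was at 49.2 to 78.0 CPM in controls (median 66.4) and 66.8 to 93.8 CPM in RES mice (median 74.2), a log2 fold change of 0.20 (SE 0.08).

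The other 3 higher genes were Bhlhe41, a repressor of clock transcription (log2 fold change 0.22, SE 0.09), Ciart, a further repressor (0.29, SE 0.14), and Dbp, an output factor of the clock (0.25, SE 0.12). Arntl, which encodes the activator BMAL1, was the lower gene, at 34.8 to 56.3 CPM in controls and 36.7 to 44.6 CPM in RES mice (log2 fold change −0.15, SE 0.07). The groups overlapped for each of these genes. Without 1 mouse in turn, between 3 and 5 genes were higher at p below 0.05. Ciart and Dbp were both above that threshold without RES mouse 1, 6 or 7 or control mouse 1, 4, 7 or 10. Bhlhe41 and Ciart were above it without RES mouse 5. The mice were killed between late morning and early afternoon, and since the hour of each mouse was not given in the sources used here, its part in these values was not tested.

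Of 19 interferon response genes tested 3 were higher at p below 0.05, against 1.73% of all genes, and 0 lower, with a median of 0.08. These were Oasl2, an antiviral gene (1.49 to 2.65 CPM in controls, 2.04 to 3.06 CPM in RES mice, log2 fold change 0.35, SE 0.13), Ifit1, which binds viral RNA (0.40, SE 0.15), and Irf9, a transcription factor of interferon signalling (0.19, SE 0.09). Of 14 genes on the antigen presentation list 2 were higher, also against 1.73%, Lag3 and H2-Ab1. Lag3 is an inhibitory receptor rather than a gene of presentation itself, and it was already named above for its small p. H2-Ab1, a class II chain, was at 0.09 to 0.81 CPM in controls and 0.41 to 1.08 CPM in RES mice (0.85, SE 0.40). Ifit1, Lag3 and H2-Ab1 met the criterion of the study, which 0.733% of all genes did in that direction. Of 12 microglia genes 0 were below the threshold, where 3.51% of all genes were, and all 12 had intervals within a fold change of 1.3.

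Among neuropeptides, Penk, the precursor of enkephalins, was at 9.57 to 17.3 CPM in controls (median 12.1) and 11.8 to 21.0 CPM in RES mice (median 14.7). Its log2 fold change was 0.30 (SE 0.11, unadjusted p = 0.00953) and 0.20 without RES mouse 5, the highest. Pnoc, the precursor of nociceptin, was at 4.0 to 6.46 CPM in controls and 2.98 to 4.99 CPM in RES mice (log2 fold change −0.23, SE 0.10), and the other 6 opioid genes were above the threshold. Of 19 other neuropeptide genes 1 was higher and 1 lower, and likewise 1 each of 8 opioid genes, against 1.73% and 1.78% of all genes. The higher neuropeptide gene was Crhr2, a receptor of the corticotropin-releasing family (0.37, SE 0.17), and the lower Cort, which encodes cortistatin (−0.35, SE 0.14).

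Of 17 ionotropic glutamate receptor genes and 12 GABA-A subunits 0 were below the threshold, where 3.51% of all genes were, with medians of −0.03 and 0.04. Of 7 metabotropic glutamate receptors 1 was higher, against 1.73% of all genes. This was Grm8, a presynaptic inhibitory receptor (7.77 to 12.5 CPM in controls, 11.2 to 14.7 CPM in RES mice, log2 fold change 0.28, SE 0.11). Of 21 monoamine receptors 1 was higher, also against 1.73%, the dopamine receptor gene Drd1, with a log2 fold change of 0.50 (SE 0.18). RES mouse 5 had 21.0 CPM of Drd1, while the other RES mice had 4.13 to 7.32 CPM, and without RES mouse 5 the log2 fold change was 0.09. The summed striatum markers of that mouse were also the highest, but Drd1 is part of that sum, so the 2 values are not separate observations. Another of the 21, the serotonin receptor gene Htr2c, named after its values were seen, was at 4.35 to 31.0 CPM in controls (median 9.80) and 4.67 to 10.3 CPM in RES mice (median 7.49), with a log2 fold change of −0.58 (SE 0.37, unadjusted p = 0.121).

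The remaining lists had 0 to 2 members below the threshold. Of 21 TGF-beta genes 2 were lower, against 1.78% of all genes. These were Bmp6, a bone morphogenetic protein (log2 fold change −0.39, SE 0.15), and Tgfb2, a ligand (−0.14, SE 0.07). Of 21 DNA methylation and histone deacetylation genes 1 was lower, also against 1.78%, the deacetylase Hdac5 (−0.10, SE 0.05). Of 21 heat shock and chaperone genes and 13 mitochondrially encoded genes of the respiratory chain 0 were below the threshold, where 3.51% of all genes were. Their medians were 0.01 and −0.07.

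Across all lists, those of other cell types included, 41 genes were below the unadjusted p of 0.05, where 3.51% of all genes tested were. In each of the 17 fits without 1 mouse, 17 of the 41 were below it. The other 24 were above it in at least 1 fit. Penk, Drd1 and Bhlhe41 were above it without RES mouse 5, and Cort without RES mouse 1, 2 or 5. Pnoc and Crhr2 were above it in 4 of the fits, Irf9 and H2-Ab1 in 7, Dbp and Hdac5 in 8, and Arntl, Ciart and Tgfb2 in 9. Of the cell type markers, Wfs1 was above it in 4 of the fits, Cldn5 in 8 and Slc6a13 in 13.

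Markers of other cell types were set beside these results. Of 9 choroid plexus genes tested 6 were lower in RES mice at p below 0.05, against 1.78% of all genes. The list median was −1.52, and the count of 6 rested on SH control mouse 3. Ttr was at 872 CPM in that mouse, at 33.2 CPM in control mouse 5, at 4.03 CPM in control mouse 6 and at 1.06 CPM or less in the other 7 controls, against 0.05 to 1.94 CPM in RES mice. Its log2 fold change of −7.77 became −3.41 without control mouse 3 (unadjusted p = 0.253) and −0.79 without SH control mice 3 and 5 and RES mouse 3. Without control mouse 3 alone, 0 of the 9 genes were below the threshold and the median was −0.02. None of the 6 met the criterion of the study.

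All 13 myelin genes of oligodendrocytes had a lower mean in RES mice, with log2 fold changes from −0.30 to −0.15. Of these 0 were below an unadjusted p of 0.05, where 3.51% of all genes were. Summed, they were 1184 to 2271 CPM in controls (median 1584) and 1122 to 1460 CPM in RES mice (median 1371), with 1 RES mouse below all controls. When the 17 SH mice were fitted alone, 9 of the 13 were lower at an unadjusted p below 0.05, against 1.69% of the 17290 genes tested there. Without SH control mouse 10, the highest, the log2 fold change of Mag, a myelin glycoprotein, went from −0.30 to −0.22.

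Genes of mature granule cells, astrocytes and CA3 and CA2 pyramidal cells had 0 members below the threshold, where 3.51% of all genes were. Immature granule cells and progenitors had 1 of 12, the transcription factor Sox4 (log2 fold change −0.18, SE 0.07), and Dcx, a marker of newborn neurons, was at 12 to 19.0 CPM in controls and 14.3 to 19.8 CPM in RES mice (0.14, SE 0.08, unadjusted p = 0.0663). CA1 pyramidal cells had 1 of 7, Wfs1 (0.23, SE 0.11), meningeal fibroblasts 1 of 9, Slc6a13 (−0.28, SE 0.14), striatum 1 of 5, Drd1, and thalamus 0 of 13, GABA interneurons 0 of 11 and hilar mossy cells 0 of 5. Summed striatum markers, Drd1 included, were above all controls in 4 RES mice and below all controls in 1. With the mean standardised levels of the choroid plexus and of the thalamus markers as covariates, 211 genes met the criterion of the study (115 higher, 96 lower), among them 181 of the 222 that met it without them. The part of the other cell types was not tested.

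**Figure D4:**
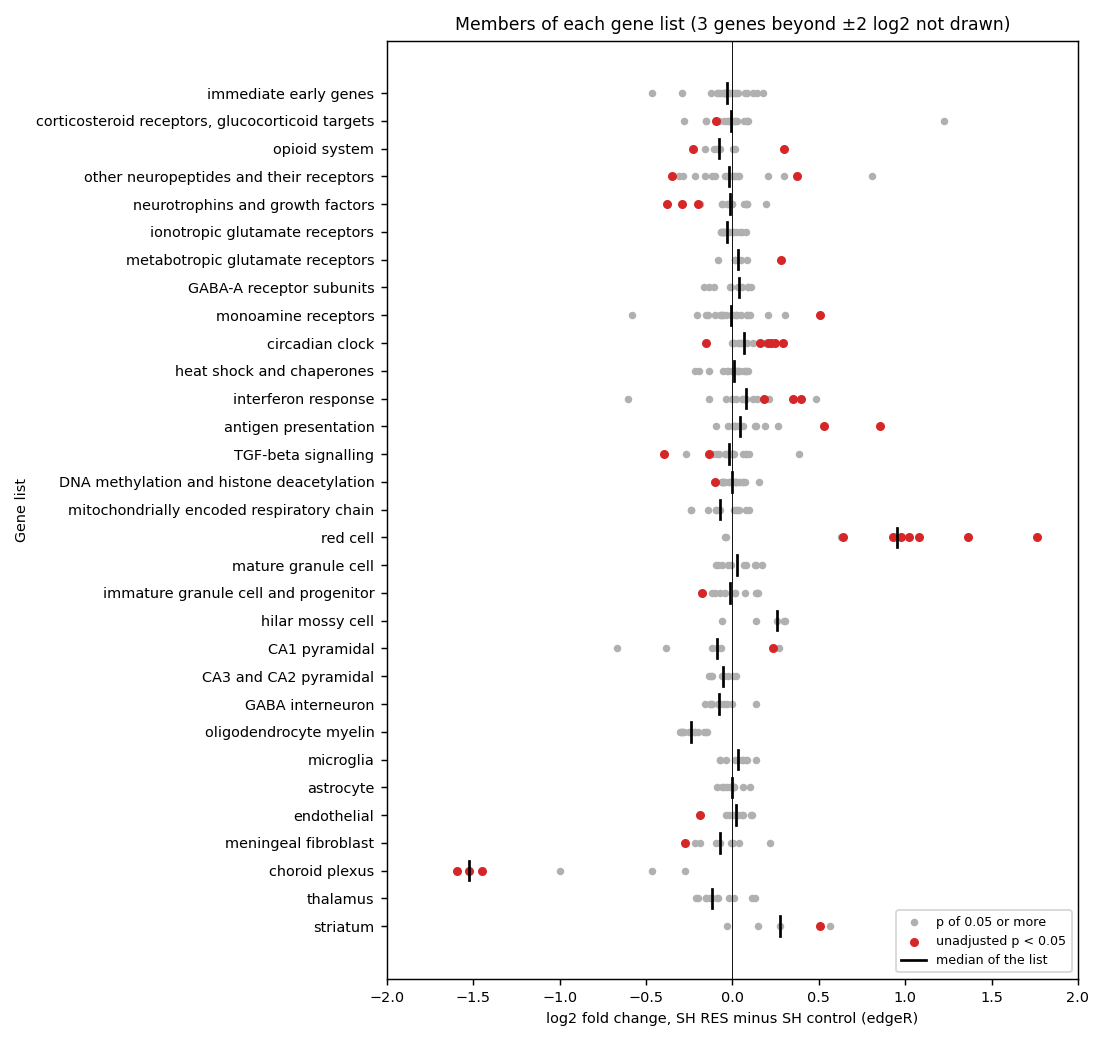
Each row is 1 of the 31 gene lists and each point a member, placed by its log2 fold change (SH RES minus SH control, edgeR), with red points at an unadjusted p below 0.05 and black bars at the list median. The red cell list has its median at 0.95 and choroid plexus at −1.52. Medians of striatum (0.28), hilar mossy cells (0.26) and myelin (−0.24) lie further from 0 than those of the remaining lists, and 3 genes beyond 2 log2 units are not drawn.

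The 222 genes that met the criterion of the study were 1.21% of those tested, 134 higher (0.733%) and 88 lower (0.481%). They were 108 protein-coding genes, 33 processed pseudogenes, 25 TEC loci (gene models still awaiting experimental evidence) and further classes of non-coding genes. Most were low, with a mean under 1 CPM for 158 of them (71.2%) against 16.9% of all genes tested. Their median absolute log2 fold change was 0.53 and 12 passed 2-fold. In all 17 fits without 1 mouse 65 of them met the criterion each time, 46 higher and 19 lower, and 145 of the 222 did so without the 3 mice left out together.

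EE mice gave a comparison of RES with control mice that shares no animal with the one in SH. Of 18283 genes, 214 met the criterion in EE (1.17%). The 2 lists shared 19 genes, 8.56% of the 222 in SH and 8.88% of the 214 in EE, and 17 of the 19 had the same direction. Named after their values were seen, these 17 included the 7 red cell genes, Fmo2 and the interferon gene Rsad2. Over all 222 genes, 49.1% had the same sign in EE, where 40.8% of all genes tested did.

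Globin RNA summed to 57.5 to 104 CPM in EE control (median 79.6) and 78.8 to 232 CPM in EE RES mice (median 141). In EE 7 of 9 RES mice were above all EE control mice, and in SH 6 of 7 RES mice were above all SH control mice. Hbb-bt was at 4.14 to 8.87 CPM in EE control (median 6.84) and 6.77 to 25.8 CPM in EE RES mice (median 12.3), a log2 fold change of 1.01 (SE 0.29, unadjusted p = 0.00104) against 1.36 in SH. The difference between the housings was 0.35 (SE 0.42, unadjusted p = 0.405). For Alas2 the log2 fold change was 0.93 in EE and 1.02 in SH, with a difference of 0.09 (SE 0.39, unadjusted p = 0.819).

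Several of the other named genes had another sign in EE. Lag3 had a log2 fold change of −0.24 in EE (SE 0.14) against 0.53 in SH, and Cdh13 one of −0.15 (SE 0.07) against 0.24. Among the lower genes, Slc5a11 had one of 0.42 in EE (SE 0.24) against −0.84, and Tnfrsf12a one of 0.30 (SE 0.16) against −0.55. The differences between housings had unadjusted p of 0.000462, 0.000129, 0.00125 and 0.00109 in edgeR, but these genes were named for their small p in SH, so the tests are not independent of that choice. Across all genes the test of the difference between the housings called 0 at an adjusted p of 0.05 in edgeR, limma and DESeq2 (0%), with a smallest adjusted p of 0.571 in edgeR, and 1480 (8.09%) at an unadjusted p below 0.05 in edgeR, 1445 in limma and 1464 in DESeq2.

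**Figure D5:**
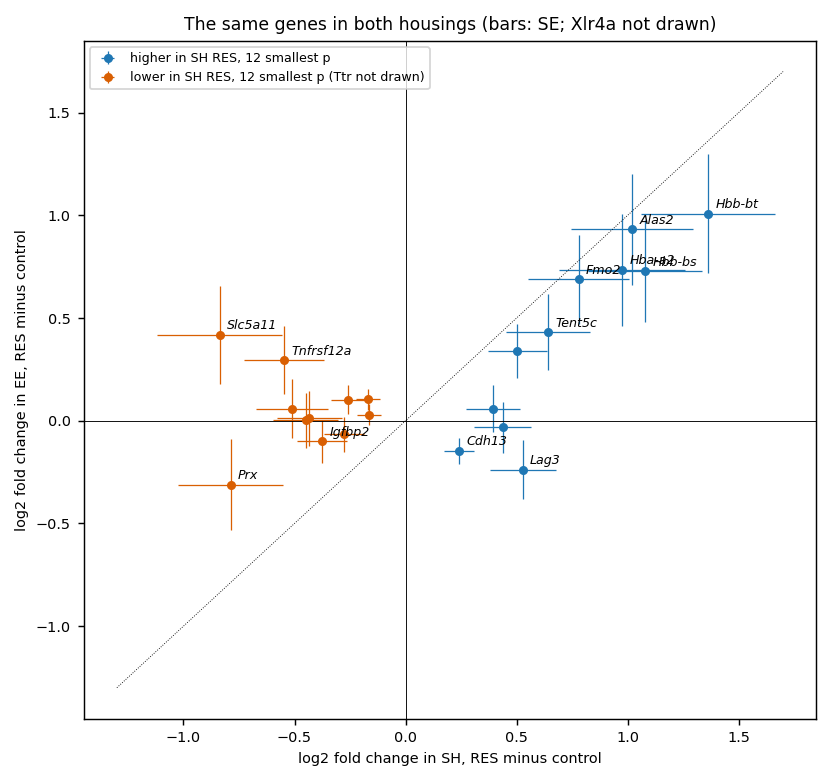
Log2 fold change of RES minus control in SH (x axis) against the same in EE (y axis), with SE bars, for the genes with the smallest p in SH, higher (blue) and lower (orange), without Ttr and Xlr4a. Red cell genes and Fmo2 lie near the dotted line of equal change, while Lag3, Cdh13, Slc5a11 and Tnfrsf12a have opposite signs in the 2 housings.

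SH SUS mice, compared with the same SH control mice, had larger values for the red cell genes. Hbb-bt was at 4.66 to 34.7 CPM in SUS mice (median 18.6), a log2 fold change of 1.7 from control, and Hbb-bs at 42.7 to 244 CPM (median 129), one of 1.47. In that comparison 6 genes passed an adjusted p of 0.05 in edgeR (0.0328%). RES minus SUS mice gave log2 fold changes of −0.34 for Hbb-bt (unadjusted p = 0.231) and −0.39 for Hbb-bs (0.128), and 0 genes passed an adjusted p of 0.05 (0%), with 893 (4.88%) at an unadjusted p below 0.05.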

How the data were processed

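Ventral dentate gyrus RNA was compared between 7 SH RES and 10 SH control mice. Per library, the authors deposited 1 table with raw, unnormalized counts of reads in each gene (55 libraries in all), made with STAR on GRCm38 (mm10 and STAR also stand in the submitters' processing notes). The methods name featureCounts, whereas the columns look like those STAR writes when it counts genes. The kit was stranded, and the reverse-strand column was used, since forward-strand counts were 3.51% to 4.13% of both. Rows for read pairs not counted to a gene were left out. These were pairs outside genes (19.9% to 28.8% of read pairs), unmapped pairs (13.9% to 19.9%) and pairs mapped to several places (8.70% to 12.1%). Pairs ambiguous between genes (0.836% to 1.12%) were left out as well, and 45.8% to 52.9% of read pairs were counted. Adding up both runs of EE control mouse 9 left 54 mice. Of 45318 gene IDs, 44671 matched GENCODE M21, from which names and positions come. Promoter windows come from RefSeq.

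Counts were normalized by TMM, filtered with filterByExpr (18283 genes) and tested with the quasi-likelihood test of edgeR 4.0.16 (R 4.3.3) in a model of the 6 groups over 54 mice, with Benjamini-Hochberg adjustment over all genes. All tests were two-sided. DEGs by the criterion of the study used limma 3.58.1 (voom), and DESeq2 1.42.0 was an alternative. The SE is the log2 fold change divided by the root of F, and intervals cover 95%. The script was tested on simulated data. Summaries and plots were made in Python 3.11.15 with pandas 2.3.3, NumPy 2.4.6 and matplotlib 3.10.9.

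The text names the 12 genes with the smallest edgeR p in each direction (without pseudogenes and gene models lacking an approved name), up to 3 genes of each list by p, and Nr3c1, Nr3c2, Fkbp5, Bdnf, Fos, Arc, Penk, Hbb-bs and Hba-a1, and other list members below p 0.05 as examples. The comparison, lists and named genes were chosen with earlier results of these data known. Depth, 16760009 to 24067110 counts per SH mouse in these groups, limits precision most for genes of low count. The labels name mice but no litter, cage or sequencing batch, so p-values measure the spread between these mice. The methods state fewer replicates per group than the labels hold, and all labelled mice were used. Results for a few list members are not reported here.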

Additional observations from a re-analysis of the deposited data

Results flagged for a closer look

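In each group the highest and the lowest mouse of every named gene and marker sum were compared with the rest by Dixon's test on log2 CPM. It marked 25 of 256 tests, and chance marks about 1 in 20 groups. Values are CPM, and no cause was tested.

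SH control mouse 3 was marked most often. It had 1018 CPM of summed choroid plexus markers (21.8 to 57.1 in the other control mice), 20.8 of Clic6 (0.0491 to 0.735) and 8.67 of Aqp1 (0.121 to 0.474), all plexus genes. It also had 834 of summed mature granule cell markers (1069 to 1362), with 65.4 of Trpc6 (95.9 to 128), and it was high for Ociad2, a marker of CA3 and CA2 cells, with 93.1 (55.6 to 72.6), for the opioid receptor gene Oprd1 with 11.4 and for the adrenergic receptor gene Adra1d with 38.0.

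SH RES mouse 5 had 52.4 CPM of summed striatum markers (31.8 to 39.2 in the other RES mice), a sum of which Drd1 made up 21.0. It also had 97.1 of Bdnf (58.7 to 72.1), 48.6 of Sox11 (35.4 to 40.4), 14.7 of Grm8, 5.46 of Sik1 and 1.41 of Bmp6 (1.85 to 2.23). SH RES mouse 4 had 559 of summed thalamus markers (247 to 318), with 21.8 of Zic1 (7.63 to 11.6), 57.4 of Plcb4 (26.7 to 33.1) and 11.6 of Tcf7l2 (3.96 to 6.12), and 55.5 of Mag (42.7 to 47.6).

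The remaining marks were single genes. SH RES mouse 6 had 35.7 CPM of the astrocyte gap junction gene Gjb6 (44.7 to 51.2), and SH RES mouse 7 had 1.94 of Ttr. SH control mouse 10 had 45.9 of the myelin gene Cldn11 (25.4 to 34.7), SH control mouse 7 had 0.737 of Crhr2 and SH control mouse 4 had 49.2 of Per3. The test of the difference between housings marked 0 genes at an adjusted p of 0.05.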

How the results depend on the processing

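In edgeR 0 genes passed an adjusted p of 0.05 under every alternative but the fit of the 17 SH RES and SH control mice alone, where 4 passed, while the test of the difference between housings gave 0 under all that could be run. The 222 DEGs became 832 (480 higher, 352 lower) with no low-count filter and 104 (71 higher, 33 lower) where at least 1 CPM in at least 7 mice was required, since these settings test more and fewer low genes, and the 641 genes at an unadjusted p below 0.05 became 1192 with no filter. Leaving out 1 mouse at a time gave 209 to 277 DEGs, 504 to 807 genes at an unadjusted p below 0.05, 0 to 0 genes at an adjusted p of 0.05, and 0 to 0 for the difference between housings. Of 114 named genes, 107 kept their direction in every alternative. Aqp1 changed direction with marker scores as covariates (0.29) and in DESeq2 (0.25), and ranged from −1.90 to 0.23 without 1 mouse at a time, being positive without SH control mouse 3. Tcf7l2 was at 0.0777 in limma, and Nr3c1 at −0.0062 without SH control mice 3 and 5 and SH RES mouse 3. The cause was not tested. Without 1 mouse at a time, Nr3c1 ranged from −0.00800 to 0.0354, Fkbp5 from −0.0775 to 0.0515, Bdnf from −0.00491 to 0.129, Fos from −0.213 to 0.0927 and Arc from −0.138 to 0.0189. Same-numbered RES and control mice had correlations of their deviations from −0.13 to 0.21, which gives no sign that the numbers pair them, and with the number as a block 263 DEGs (134 higher, 129 lower) and 712 genes at an unadjusted p below 0.05 were found, and 0 at an adjusted p of 0.05.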
